A study of Mus musculus with 6 samples.

Results

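MHC class II presentation was followed in whole mouse kidneys through 10 genes, chosen by name from the count table: the classical chains H2-Aa, H2-Ab1 and H2-Eb1, the invariant chain Cd74, the transactivator Ciita, the peptide-editing genes H2-DMa, H2-DMb1 and H2-DMb2, and the genes H2-Oa and H2-Ob of their inhibitor. All 10 were found by Ensembl ID among the 55401 genes of the table, and all 10 passed the low count filter. The study sequenced 3 control kidneys and 3 kidneys from mice that had diabetic kidney disease (DKD), and its title concerns Setdb2, Smad3 and podocytes. GEO's labels give control or DKD under genotype, the tissue and a replicate number. They give no strain, allele, agent, age or time, and do not say whether libraries are separate animals, so the p-values measure only the spread between these 6 libraries. Levels are in CPM, read counts relative to the library total, scaled for library composition. Library totals ran from 64816622 to 77417638 counts, and a count of 0 allows a level of up to 3 counts (0.0353 to 0.0505 CPM by library). This limit covers counting error only.

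Class II molecules are pairs of an alpha and a beta chain that show peptides from endosomes to CD4 T cells. The invariant chain fills the groove on the way to the endosome, H2-DM exchanges its last fragment for peptide, and H2-O holds H2-DM back, mainly in B cells and some dendritic cells. Dendritic cells, macrophages and B cells carry class II at rest, and interferon gamma can switch it on in other cells, tubular epithelium among them, through Ciita. In such bulk samples, more cells of a type and more RNA per cell cannot be told apart.

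Ciita acts through proteins bound to a short promoter module, in which RFX binds the X box and NF-Y binds the Y box, an inverted CCAAT. RefSeq promoters (GRCm38.p6, 250 bases before the start site) were found for 7 of the 10 genes. CCAAT on either strand stood in at least 1 promoter of all 7, and of 37.5% of the 27025 genes with promoters. By promoter it stood in 7 of the 8 of these members, and in 33.9% of all 32851. The core AGNNAC, followed after 1 base by GATG, on either strand, stood in 3 of the 7 genes and in 0.958% of all genes. By promoter it stood in 3 of the 8 and in 0.816% of all. These 3 stretches are shown because they hold that core. Capitals mark the core and, where it follows within the stretch, the CCAAT box on the opposite strand. They lie on the plus strand, at chr17:34305745-34305832, chr17:34153066-34153154 and chr17:34092208-34092268 in that order.

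H2-Eb1: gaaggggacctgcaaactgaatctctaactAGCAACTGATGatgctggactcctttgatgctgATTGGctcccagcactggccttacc
H2-DMb1: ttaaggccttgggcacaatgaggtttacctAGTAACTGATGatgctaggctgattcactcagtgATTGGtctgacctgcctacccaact
H2-Oa: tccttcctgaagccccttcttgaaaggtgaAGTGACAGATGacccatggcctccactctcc

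In H2-Eb1 the core began at position -92 from the start site and 22 bases separated it from the CCAAT box. In H2-DMb1 it began at position -95, with 23 bases between. In H2-Oa the core began at position -141, and its CCAAT lay nearer the gene, outside the stretch shown. A match is a description of these letters and not a binding site.

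H2-DMb1 and H2-DMb2 are neighbours and near copies, so their reads can be hard to assign. Their coding sequences, of 783 bases each in GENCODE release M21, were identical at 95.9% of positions, with an unbroken identical run of 221 bases. Of all 100-base windows of the H2-DMb1 transcript, 13.7% were found exactly in H2-DMb2. No such window of the other 8 genes was found in the transcripts of another gene. The stretch of coding bases 201 to 320 is shown for both because it was the least alike of its length, with 23 differences, given in capitals.

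H2-DMb1: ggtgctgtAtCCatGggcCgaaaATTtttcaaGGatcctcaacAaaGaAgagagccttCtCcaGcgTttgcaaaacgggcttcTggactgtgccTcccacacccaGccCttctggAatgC
H2-DMb2: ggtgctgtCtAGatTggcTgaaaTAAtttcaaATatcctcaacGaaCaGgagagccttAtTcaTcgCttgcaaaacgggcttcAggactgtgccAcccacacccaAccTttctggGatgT

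The libraries did not follow their labels in the H2 complex, the region of chromosome 17 that holds all the members except Cd74 (chromosome 18) and Ciita (chromosome 16). H2-Ea, the alpha chain that pairs with H2-Eb1, is annotated as a transcribed pseudogene in the reference. Mice of the b haplotype, such as the reference strain C57BL/6J, carry a deletion in this gene and make no normal transcript, while haplotypes such as d and k express it. H2-Ea had 1444, 4779 and 6256 counts in the controls, in replicate order, and 2191, 4 and 0 in DKD. Thus 4 libraries, DKD replicate 1 among them, held it and DKD replicates 2 and 3 were at 4 counts or fewer. In CPM it was at 24.3, 72.4 and 88.3 in the controls, at 28.8 and 0.0519 in DKD replicates 1 and 2, and had no count in DKD replicate 3.

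H2-Eb2, a further E beta chain, had the opposite pattern, with 0 counts in all 3 controls and in DKD replicate 1 and 44 and 38 counts in DKD replicates 2 and 3. Rps18, a ribosomal protein gene of the same region, was at 68.1, 11.8 and 13.2 CPM in the controls and 10.5, 116 and 113 CPM in DKD. H2-K1, a class I chain, was at 158, 61.1 and 53.7 CPM in the controls and 31.2, 661 and 681 CPM in DKD. For both genes control replicate 1 lay between DKD replicates 2 and 3 on one side and the remaining 3 libraries on the other. Rps18 and H2-K1 were chosen after their values were seen. Over these 4 genes the libraries therefore differed in ways the 2 labelled groups do not give. Whether the animals differed in strain, or whether labels were exchanged between libraries, was not tested, and each comparison of DKD with control below holds for the libraries as labelled. How reads of another haplotype were counted against this reference, and the part of that in the levels of the H2 genes below, was not tested. Where DKD replicate 1 is left out, DKD and the absence of H2-Ea fall on the same libraries and cannot be told apart.

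**Figure D1:**
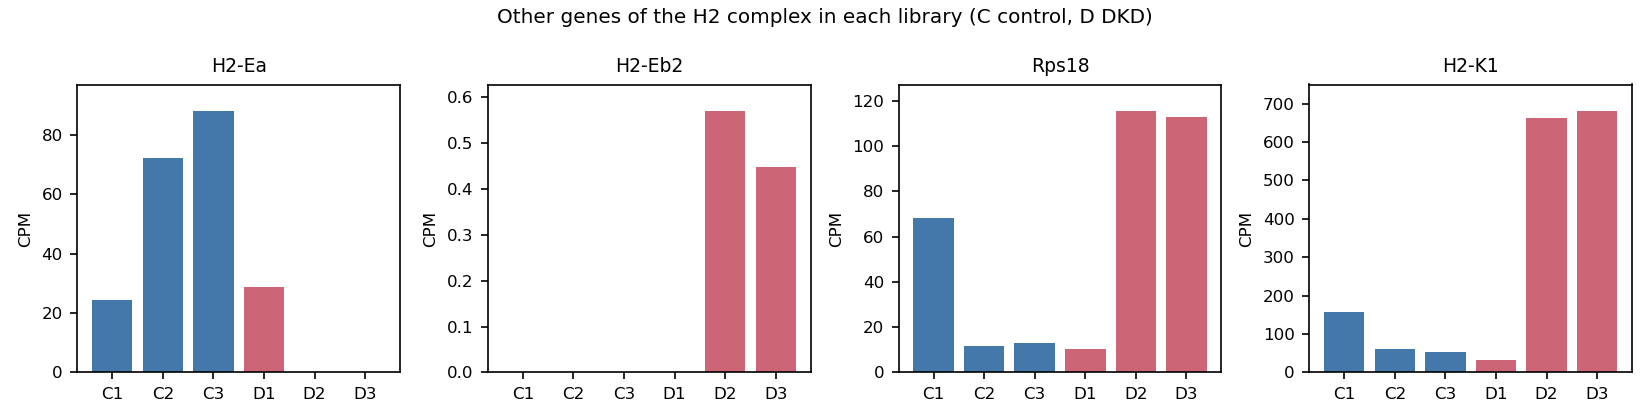
H2-Ea, H2-Eb2, Rps18 and H2-K1 in each library, with CPM on the vertical axis of each panel and bars for control (C1 to C3) and DKD (D1 to D3) libraries. H2-Ea is at 24.3 to 88.3 CPM in C1 to C3 and D1 and at 0.0519 CPM or no count in D2 and D3, while H2-K1 is at 661 and 681 CPM in D2 and D3 and at 31.2 to 158 CPM in the others.

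DKD replicate 1 also stood apart in hepatocyte genes. The 10 listed hepatocyte genes summed to 4040 CPM there and to 296 to 446 CPM in the other 5 libraries, and Serpina3k, Ahsg and Mup3 were at 388, 376 and 155 CPM in it with no count in the others. Apob of the same list did not follow, at 248 CPM in DKD replicate 1 and 222 to 309 CPM in the others, where it was most of the sum. Kidney markers were present in every library, with 9 of 9 detected and sums of 10027 to 12865 CPM. The part of the hepatocyte transcripts in the class II levels was not tested. Results are given with and without DKD replicate 1.

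The classical chains and the invariant chain were the most abundant members. All 4 were higher in DKD replicates 2 and 3 than in any control, and lower in DKD replicate 1 than in any control. H2-Aa (ENSMUSG00000036594), the A alpha chain, was at 42.1, 40.3 and 46.5 CPM in the controls and at 17.1, 181 and 203 CPM in DKD. Its 3 controls lay close together, and the DKD libraries lay on both sides of them. The mean of DKD replicates 2 and 3 was 4.47 times the control mean. With all 6 libraries the log2 change was 1.64 ± 0.84 (SE; adjusted p = 0.341 in edgeR), and without DKD replicate 1 it was 2.15 ± 0.11 (adjusted p = 0.000374 in edgeR).

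H2-Ab1 (ENSMUSG00000073421), the A beta chain, was at 56.0, 69.0 and 75.2 CPM in the controls and at 17, 194 and 194 CPM in DKD. The pattern was that of H2-Aa, at 2.90 times the control mean in DKD replicates 2 and 3. Its log2 change was 1.01 ± 0.83 (SE; adjusted p = 0.540 in edgeR) with all libraries and 1.53 ± 0.13 (adjusted p = 0.00157) without DKD replicate 1. H2-Eb1 (ENSMUSG00000060586), the E beta chain, was at 46.9, 58.2 and 64.3 CPM in the controls and at 19.9, 161 and 182 CPM in DKD. DKD replicates 2 and 3, which lacked its H2-Ea partner, thus had the highest H2-Eb1. Its log2 change was 1.1 ± 0.76 (SE; adjusted p = 0.465 in edgeR) with all libraries and 1.59 ± 0.14 (adjusted p = 0.00181) without DKD replicate 1.

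Cd74 (ENSMUSG00000024610), the invariant chain, lies outside the H2 complex. It was at 146, 308 and 362 CPM in the controls and at 105, 544 and 615 CPM in DKD. Control replicate 1 was well under the other controls and closer to DKD replicate 1. DKD replicates 2 and 3 were at 2.13 times the control mean, with a log2 change of 0.63 ± 0.68 (SE; adjusted p = 0.642 in edgeR) with all libraries. Without DKD replicate 1 it was 1.08 ± 0.36 (adjusted p = 0.10), so Cd74 did not pass the threshold in either fit.

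Ciita (ENSMUSG00000022504), the transactivator of the other members, was among the low ones. It was at 4.43, 3.97 and 7.22 CPM in the controls and at 2.89, 11.6 and 11.1 CPM in DKD. As for the chains, DKD replicate 1 was lowest and DKD replicates 2 and 3 were highest. Its log2 change was 0.71 ± 0.52 (SE; adjusted p = 0.480 in edgeR), and 1.12 ± 0.27 (adjusted p = 0.0344) without DKD replicate 1.

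Of the H2-DM genes, H2-DMb1 (ENSMUSG00000079547) differed most. This beta chain was at 10.7, 8.05 and 6.88 CPM in the controls and at 1.55, 32.9 and 36.3 CPM in DKD, with a log2 change of 1.47 ± 1.01 (SE; adjusted p = 0.464 in edgeR) and 2.01 ± 0.19 (adjusted p = 0.00207) without DKD replicate 1. Its near copy H2-DMb2 (ENSMUSG00000037548) was at 3.23, 10.7 and 11.1 CPM in the controls and at 3.01, 8.63 and 6.42 CPM in DKD. Here DKD replicates 2 and 3 lay inside the range of the controls, and the log2 change was -0.47 ± 0.55 (SE; adjusted p = 0.664 in edgeR) and -0.16 ± 0.50 (adjusted p = 0.868) without DKD replicate 1. H2-DMa (ENSMUSG00000037649), their alpha partner, was at 7.00, 13.8 and 16.3 CPM in the controls and at 5.07, 18 and 18.8 CPM in DKD. DKD replicates 2 and 3 were just above the highest control. Its log2 change of 0.17 ± 0.53 (SE; adjusted p = 0.884 in edgeR) turned negative when control replicate 1 (-0.12) was left out, and likewise for DKD replicates 2 (-0.05) and 3 (-0.10), and was 0.56 ± 0.32 (adjusted p = 0.279) without DKD replicate 1.

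H2-Oa (ENSMUSG00000024334) and H2-Ob (ENSMUSG00000041538), the alpha and beta chains of the H2-DM inhibitor, were the least abundant members. H2-Oa had 31, 10 and 19 counts in the controls and 20, 119 and 103 counts in DKD. H2-Ob had 54, 52 and 107 counts in the controls and 18, 379 and 290 counts in DKD. Both were highest in DKD replicates 2 and 3, and for H2-Oa DKD replicate 1 lay inside the controls. Their log2 changes were 1.68 ± 0.74 and 1.42 ± 0.91 (SE; adjusted p = 0.272 and 0.426 in edgeR). Without DKD replicate 1 they were 2.13 ± 0.54 and 1.95 ± 0.35 (adjusted p = 0.0413 and 0.0139).

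**Figure D2:**
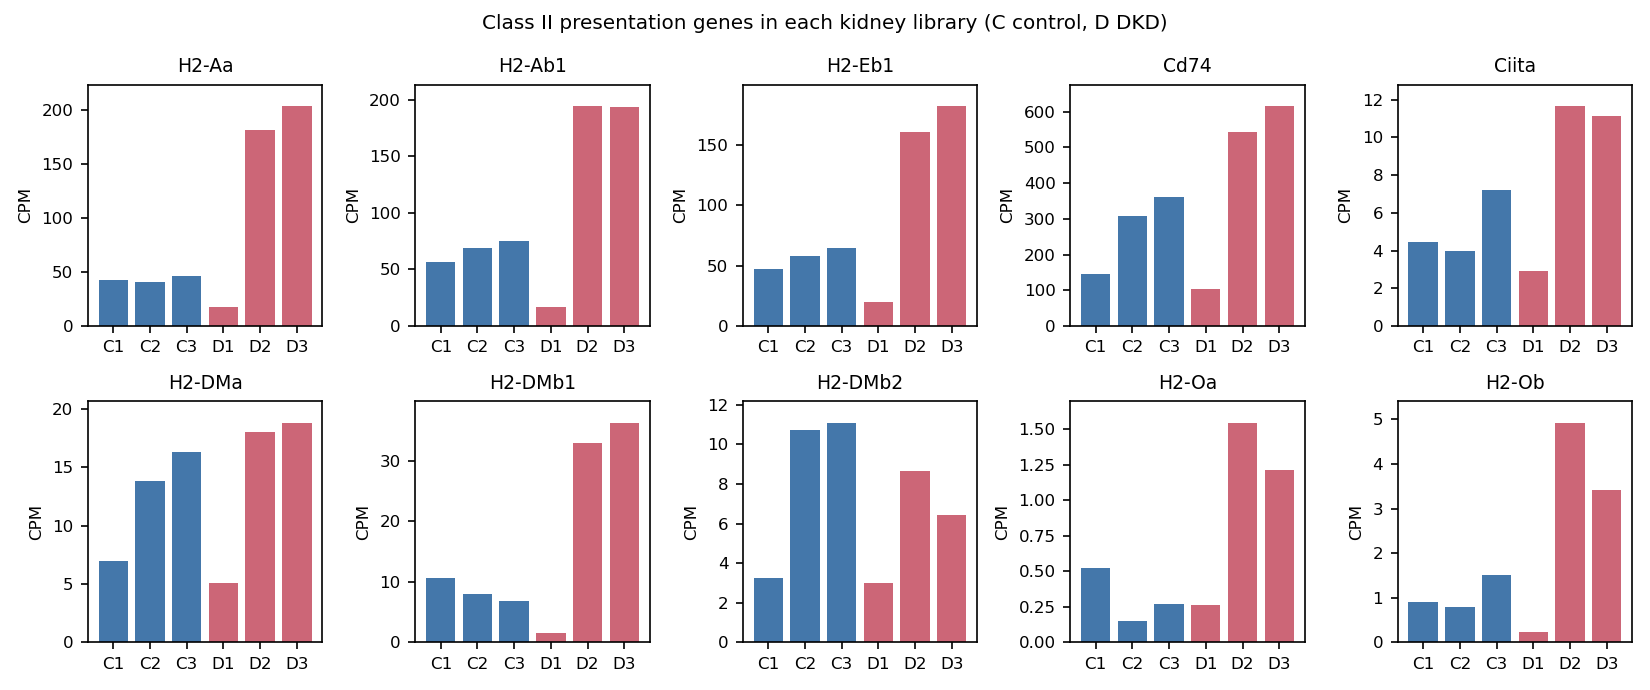
CPM of each of the 10 genes (1 panel each, own vertical scale from 0) in the control (C1 to C3) and DKD (D1 to D3) libraries. D2 and D3 are the 2 highest bars in 9 panels, all but H2-DMb2, and D1 is the lowest in 9 panels, all but H2-Oa.

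With all 6 libraries edgeR called 0 of the 10 members and 0% of the 19197 genes tested. None of the 10 had an unadjusted p under 0.05, where 12.2% of all genes had such a p with a higher level. DESeq2 called 0 of the 10 members, beside 6.22% of all genes called higher. Weighted limma-voom called 1, H2-Aa (adjusted p = 0.0463), beside 9.94% of all genes called higher. The members' median log2 change was 1.06, beside 0.02 for all genes tested, and 9 of 10 had a higher fitted level. Groups overlapped for all 10, while they did not for 25.4% of all genes.

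These counts depended on DKD replicate 1. When it was left out, edgeR called 7 of the 10 higher, where 9.67% of all genes were called higher, and the members' median was 1.56, beside 0.02 for all genes. The 3 not called were Cd74, H2-DMa and H2-DMb2. In 9 of 10 members both DKD replicates 2 and 3 lay above every control, as did 27.4% of all genes, the exception being H2-DMb2. DKD replicate 1 was the lowest of the 6 libraries for 9 of 10 members, the exception being H2-Oa, and for 13.8% of all genes. No library other than DKD replicate 1, when left out, gave a call among the members in edgeR.

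**Figure D3:**
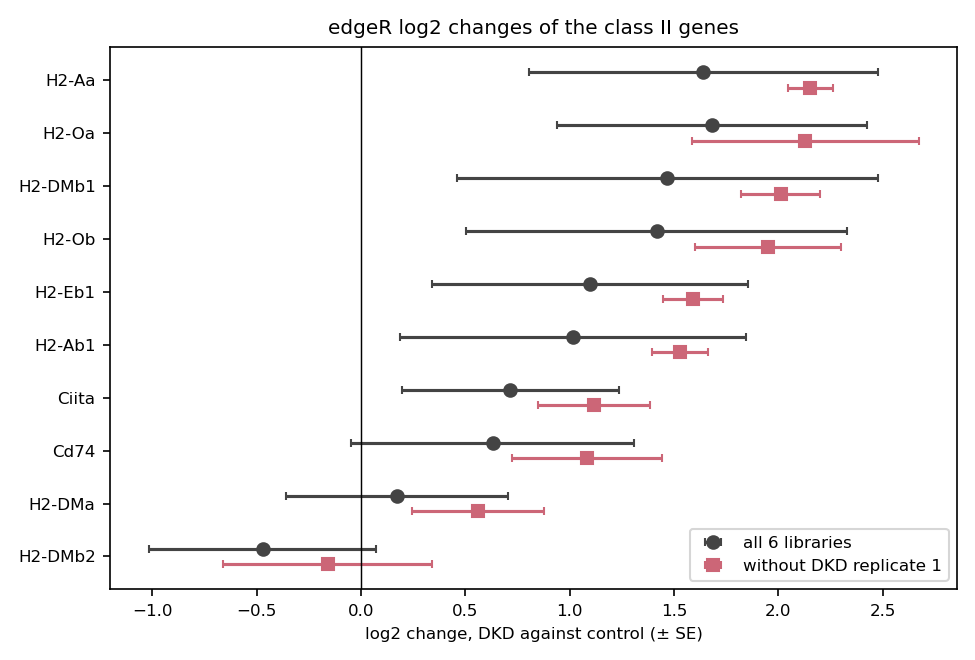
Log2 change in DKD against control from edgeR on the horizontal axis, with bars of 1 SE, for each of the 10 genes with all 6 libraries (circles) and without DKD replicate 1 (squares). The change is larger, or for H2-DMb2 less negative, without DKD replicate 1 in every row, from 2.15 for H2-Aa to -0.16 for H2-DMb2.

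Per kilobase of transcript, which allows genes to be compared, Cd74 was the highest member in each library, at 104 to 257 CPM per kilobase in the controls and 74.2, 386 and 436 in DKD replicates 1 to 3. The classical chains came next, from 35.7 to 62.0 CPM per kilobase in the controls, 14.0 to 17 in DKD replicate 1 and 137 to 180 in DKD replicates 2 and 3. Within a library these 3 chains lay within that narrow band. H2-DM genes ranged from 1.1 to 25.8, Ciita from 0.682 to 2.75, and H2-O genes from 0.139 to 2.98 CPM per kilobase over the libraries. H2-Ea, where present, was at 23.5 to 85.2 CPM per kilobase, and its ratio to H2-Eb1 per kilobase was 0.585, 1.41 and 1.55 in the controls and 1.63 in DKD replicate 1. Control replicate 1 was again apart from the other libraries that held it.

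Ratios of counts within a library do not depend on the scaling between libraries. Of 6 planned ratios, 1 separated the groups: H2-Aa to H2-Ab1 was 0.751, 0.584 and 0.618 in the controls and 1.01, 0.935 and 1.05 in DKD. All DKD libraries, replicate 1 included, lay above all controls, by 0.62 on the log2 scale (exact permutation p = 0.10, two-sided, the smallest that 3 against 3 allows; adjusted p = 0.40 over 6 ratios). H2-Eb1 to H2-Ab1 was 0.837, 0.843 and 0.855 in the controls and 1.17, 0.829 and 0.938 in DKD, so only DKD replicate 1 stood far from the rest (exact permutation p = 0.40, adjusted p = 0.60).

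Cd74 to the summed classical chains fell into 2 levels that cut across the labels. It was 1.01, 1.84 and 1.95 in the controls and 1.94, 1.02 and 1.06 in DKD, with control replicate 1 beside DKD replicates 2 and 3 (exact permutation p = 0.90, adjusted p = 0.90). With H2-Ea added to the chains, a choice made after seeing the data, the ratio was 0.862, 1.28 and 1.32 in the controls and 1.26, 1.01 and 1.06 in DKD. The gap narrowed, and control replicates 2 and 3 and DKD replicate 1 stayed the highest. H2-DMb2 to H2-DMb1, also chosen after its values were seen, split the libraries into the same 3 and 3, at 0.303, 1.34 and 1.61 in the controls and 1.94, 0.262 and 0.177 in DKD (exact permutation p = 0.60). In control replicate 1 and DKD replicates 2 and 3 H2-DMb1 thus held most of the reads of the pair, and in the other 3 libraries H2-DMb2 did. How reads were shared between these copies was not tested.

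H2-O to H2-DM, the balance of inhibitor and editor, was 0.0684, 0.0288 and 0.0519 in the controls and 0.0518, 0.109 and 0.0753 in DKD. DKD replicates 2 and 3 were highest and DKD replicate 1 lay inside the controls (log2 difference 0.68, exact permutation p = 0.20, adjusted p = 0.40). This difference was 0.33 with H2-DMb1 alone in place of the 3 H2-DM genes and also 0.33 without control replicate 2. H2-DM to the classical chains was 0.144, 0.195 and 0.184 in the controls and 0.178, 0.111 and 0.106 in DKD (log2 difference -0.43, exact permutation p = 0.20, adjusted p = 0.40). Ciita to the classical chains was 0.0305, 0.0237 and 0.0388 in the controls and 0.0535, 0.0217 and 0.0192 in DKD, highest in DKD replicate 1, where the chains were lowest (exact permutation p = 0.80, adjusted p = 0.90). Without DKD replicate 1 the log2 differences were 0.61 for H2-Aa to H2-Ab1, 0.06 for H2-Eb1 to H2-Ab1, -0.56 for Cd74 to the chains, 0.94 for H2-O to H2-DM, -0.67 for H2-DM to the chains, -0.57 for Ciita to the chains and -2.01 for H2-DMb2 to H2-DMb1.

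**Figure D4:**
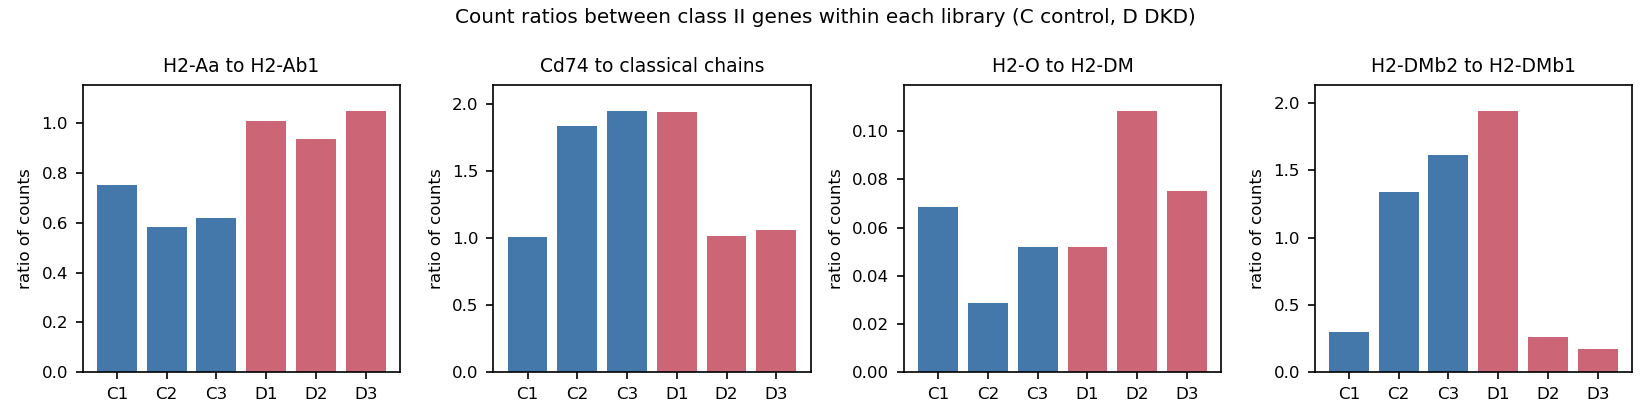
Ratio of counts (vertical axis, from 0) for 4 pairs of class II genes or gene sums within each control (C1 to C3) and DKD (D1 to D3) library. H2-Aa to H2-Ab1 is at 0.751 or less in the controls and 0.935 or more in DKD, while Cd74 to the classical chains and H2-DMb2 to H2-DMb1 have C1, D2 and D3 at a low level and C2, C3 and D1 at a high one.

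Markers of leukocytes, including those that carry class II, were higher in DKD replicates 2 and 3 as well. Levels here are means of log2(CPM + 0.1) over a list, relative to the control mean. The 7 pan-leukocyte markers were at -0.15, -0.04 and 0.19 in the controls and at -0.30, 1.39 and 1.65 in DKD, and the 10 class II genes at -0.25, -0.03 and 0.28 and at -1.35, 1.45 and 1.39. In DKD replicates 2 and 3 both lists were above every control, and in DKD replicate 1 the class II genes were further below the controls than the leukocyte markers. In summed CPM the leukocyte list ranged from 57.5 to 64.4 in the controls and from 54.3 to 176 in DKD. Without DKD replicate 1 edgeR called 7 of 7 leukocyte markers higher, beside 9.67% of all genes. Lcp1, an actin-bundling protein, was at 24.4 to 27.5 CPM in the controls and 26.9, 50.6 and 55.6 CPM in DKD, and Laptm5, a lysosomal protein of blood cells, at 6.11 to 7.35 and at 7.12, 29.9 and 36.5 CPM.

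Dendritic cell markers were at -0.31, 1.16 and 1.45 in DKD replicates 1 to 3, macrophage markers at -0.16, 1.16 and 1.49, B cell markers at -0.80, 1.62 and 0.70, and T cell markers at -0.20, 1.59 and 1.89. All 5 lists had DKD replicate 1 below the control mean and DKD replicates 2 and 3 above every control. Without DKD replicate 1, 4 of 10 dendritic cell, 10 of 12 macrophage, 2 of 10 B cell and 9 of 11 T cell markers were called higher, and none lower, beside the same 9.67% of all genes. Their summed CPM ranged from 17.1 to 22.5, from 176 to 207, from 9.71 to 20.5 and from 6.75 to 9.27 in the controls. In DKD the sums ranged from 21.1 to 44.9, from 192 to 351, from 4.39 to 69.1 and from 7.11 to 29.1. Jchain alone made up 53.8 of the B cell sum of 69.1 CPM in DKD replicate 2 and 56.1 of 63.6 CPM in DKD replicate 3. Of all these markers only Pax5 was at 0 in any library, in control replicate 1. The macrophage markers Aif1 and Adgre1 lie on chromosome 17, as the H2 complex does. Both were among those called (adjusted p = 0.0247 and 0.0138 in edgeR without DKD replicate 1). The part of reads of another haplotype in their levels was not tested.

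The most abundant markers did not all follow their list. Csf1r, the receptor for the macrophage growth factor, was at 62.3 to 74.1 CPM in the controls and 89.1, 58.2 and 66.3 CPM in DKD, and Mertk, a receptor for dying cells, at 42.6 to 58.5 and at 53.3, 41.8 and 42.7 CPM. Zbtb46, a transcription factor of classical dendritic cells, was at 4.63 to 7.39 CPM in the controls and 7.22, 6.16 and 9.17 CPM in DKD, and Fscn1, a protein of mature dendritic cells, at 5.25 to 5.47 and at 8.56, 9.42 and 12.3 CPM. Jchain, which joins antibody units, was at 5.74 to 13.9 CPM in the controls and 0.841, 53.8 and 56.1 CPM in DKD, and Cr2, a complement receptor of B cells, at 1.08 to 2.13 and at 1.64, 1.30 and 0.907 CPM. For T cells, Trac, a receptor constant region, was at 1.53 to 1.65 CPM in the controls and 0.998, 3.75 and 3.79 CPM in DKD, and Lck, its kinase, at 1.03 to 1.79 and at 0.801, 3.06 and 4.28 CPM.

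The class II level was then set against each marker list within a library, as the log2 of the summed CPM of H2-Aa, H2-Ab1, H2-Eb1 and Cd74 minus the list's mean log2 CPM. Against leukocyte markers it was 5.61, 6.21 and 6.18 in the controls and 4.88, 5.97 and 5.85 in DKD. DKD replicate 1 was lowest and DKD replicates 2 and 3 lay inside the controls (difference -0.44, exact permutation p = 0.40). Against macrophage markers it was 5.70, 6.12 and 6.14 in the controls and 4.73, 6.18 and 5.99 in DKD (exact permutation p = 0.70). The differences for dendritic, B and T cell markers were -0.29, -0.03 and -0.62 (exact permutation p = 0.60, 1.0 and 0.20). After adjustment over the 5 lists no p was below 0.875. Without DKD replicate 1 the differences were -0.09 for leukocyte, 0.12 for dendritic cell, 0.09 for macrophage, 0.26 for B cell and -0.32 for T cell markers.

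**Figure D5:**
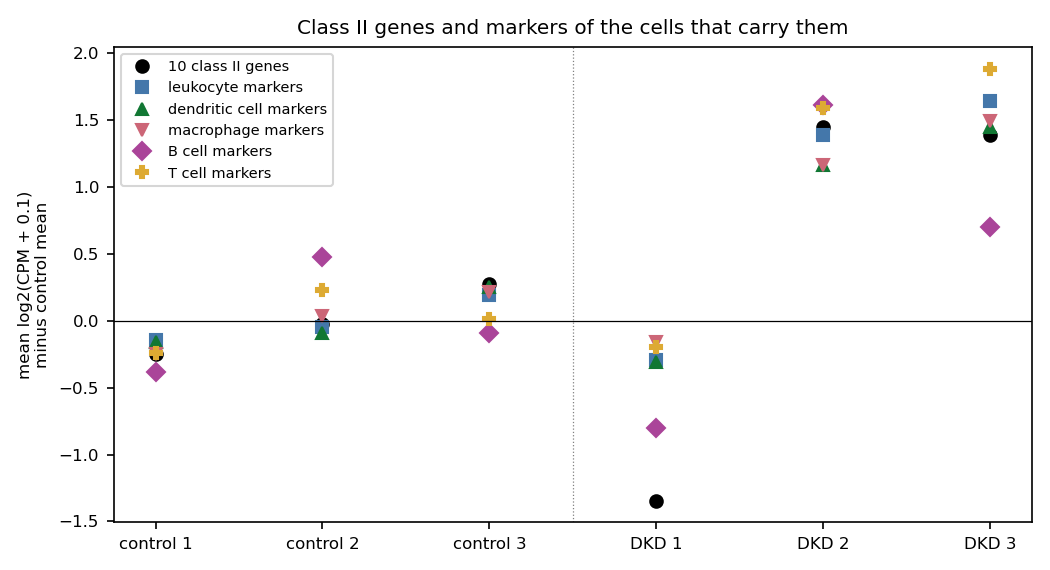
Mean log2(CPM + 0.1) relative to the control mean (vertical axis) of the 10 class II genes and of 5 marker lists in each library (horizontal axis), 1 point per list. In DKD replicates 2 and 3 the class II genes are at 1.45 and 1.39, among the marker lists, and in DKD replicate 1 at -1.35, below all 5.

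The genes whose pattern over the 6 libraries was most like that of the classical chains and Cd74 were taken from 14734 other genes with a mean of at least 1 CPM. Likeness is the root mean square difference of centred log2 CPM. The closest was Lyz2, lysozyme of myeloid cells and itself in the macrophage list, at 0.14, with 21.8, 26.1 and 32.1 CPM in the controls and 10.8, 69.2 and 95.6 CPM in DKD. Next were Rasal3 (0.15), Gpr132 (0.18), Bcl2a1b (0.19), Cd180 (0.20), a receptor-like protein of B cells and macrophages, and Clec12a (0.20), a lectin of myeloid cells. All 6 had DKD replicate 1 lowest and DKD replicates 2 and 3 highest, which their choice by this pattern fixes. Among the members, H2-DMb2 was at 0.90, and H2-Eb1, which is itself part of the pattern, at 0.04.

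Other genes of the pathway were counted in the same way. With all 6 libraries, the main fit, edgeR called 0 genes of these lists. Counts of calls below are from edgeR without DKD replicate 1 (9.67% of all genes higher), taken up because the main fit gave none. They set DKD replicates 2 and 3 alone against the controls and are not calls of the main fit. In that fit DKD and the absence of H2-Ea fall on the same libraries and cannot be told apart. With all libraries an unadjusted p under 0.05 in edgeR was reached by 4 transcription, 0 processing, 0 turnover, 3 co-stimulation and 2 receptor genes and by 7 interferon gamma targets, in either direction, beside 19.2% of all genes. DESeq2 called 2 co-stimulation genes and 6 interferon gamma targets higher, beside 6.22% of all genes called higher. Weighted limma-voom called 4 transcription, 3 co-stimulation and 1 receptor gene and 8 interferon gamma targets higher, beside 9.94% of all genes called higher. It called H2-Ea, 1 transcription and 1 turnover gene lower, beside 7.75% of all genes called lower. Some genes stand in more than 1 list. Of 16 genes for class II transcription, 4 were called higher and 0 lower, with a median log2 change of 0.24 with all libraries. Spi1, a myeloid transcription factor, was at 2.05, 2.55 and 2.85 CPM in the controls and 2.33, 6.10 and 5.69 CPM in DKD. Ifngr1 and Ifngr2, the interferon gamma receptor chains, were at 27.5 to 31.5 and 14.3 to 16.0 CPM in the controls, and at 30.8, 43.6 and 43.2 and at 15.5, 23.4 and 21.0 CPM in DKD. Nfya, a subunit of NF-Y, was at 28.5 to 31.7 CPM in the controls and 26.8, 21.2 and 25.7 CPM in DKD. It was not called in edgeR (adjusted p = 0.0833), while weighted limma-voom on all libraries called it lower (adjusted p = 0.0373).

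Of 9 endosomal processing genes, 1 was called, Ctss, the protease that trims the invariant chain in immune cells. It was at 6.13, 10.1 and 11.4 CPM in the controls and at 6.36, 37.8 and 40.5 CPM in DKD, with a log2 change of 1.62 ± 0.68 (SE; adjusted p = 0.266 in edgeR) and 2.08 without DKD replicate 1 (adjusted p = 0.00355). Ctsh, Ctsd and the thiol reductase Ifi30 were not called, and Ifi30 was highest in DKD replicate 1, at 68.2 CPM beside 33.6 to 44.4 CPM in the other libraries. The median of the list was 0.06. Neither Marchf1 nor Marchf8, ligases that send class II to degradation, was called in edgeR (adjusted p = 0.208 and 0.0603), while weighted limma-voom on all libraries called Marchf8 lower (adjusted p = 0.0413).

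Of 6 co-stimulatory and inhibitory ligands 5 were tested and 2 called higher. Cd86 was at 0.488, 0.621 and 1.55 CPM in the controls and 1.34, 4.01 and 3.63 CPM in DKD, and Cd40 at 0.757, 1.59 and 1.42 and at 1.76, 2.88 and 3.65 CPM. Cd80 was at 0.0337, 0.288 and 0.127 CPM in the controls and 0.985, 0.882 and 0.884 CPM in DKD, with a log2 change of 2.59 ± 0.68 (SE; adjusted p = 0.139 in edgeR). This fold rests on only 2, 19 and 9 counts in the controls. Cd80 was not called without DKD replicate 1 either (adjusted p = 0.0658 in edgeR). DESeq2 and weighted limma-voom on all libraries called it higher (adjusted p = 0.00978 and 0.0270). Unlike the members it was as high in DKD replicate 1 as in the other DKD libraries. Icosl was at 4.58 to 7.30 CPM in the controls and 6.66, 10.4 and 12.3 CPM in DKD. Of the receptors that bind class II, Cd4 was called higher, at 0.236, 0.894 and 0.607 CPM in the controls and 0.525, 2.87 and 3.83 CPM in DKD, while Lag3 was not, at 0.240 to 0.623 and 0.617, 1.51 and 0.966 CPM.

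Of 18 interferon gamma targets, 8 were called higher and 0 lower, and all 18 had a higher fitted level with all libraries (median 0.97). Cxcl9, a chemokine for T cells, was at 1.08, 1.35 and 2.44 CPM in the controls and 4.37, 8.80 and 7.36 CPM in DKD. The guanylate-binding proteins Gbp3, Gbp7 and Gbp5 had log2 changes of 1.65 ± 0.33, 1.62 ± 0.33 and 1.30 ± 0.40 (SE; adjusted p = 0.103, 0.106 and 0.165 in edgeR with all libraries). For these 4 genes all 3 DKD libraries lay above all controls. Over the whole list the groups did not overlap for 6 of 18 genes, beside 25.4% of all genes. The list stood at -0.67, 0.26 and 0.41 in the controls and at 0.18, 1.52 and 1.40 in DKD, so DKD replicate 1 was inside the controls. Psmb9, Tap1 and Psmb8 of this list lie between H2-DMb1 and H2-Ob, and Ubd is also on chromosome 17. Tap1 and Ubd were among those called (adjusted p = 0.0311 and 0.00865 in edgeR without DKD replicate 1). The part of reads of another haplotype in the levels of these genes was not tested.

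H2-Ea, from the list of further class II genes, was the one pathway gene called lower without DKD replicate 1, where 5.84% of all genes were called lower. Its fitted values follow from the 2 libraries without it and are not given as a fold. H2-Eb2 did not pass the filter with all 6 libraries. Without DKD replicate 1 it passed, but only through DKD replicates 2 and 3, the libraries where it was high. Its test there is therefore not given as a result. It had 0 counts in every control, so no fold is given for it either.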

How the data were processed

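Poly(A) RNA of whole kidneys was made into strand-marked libraries, per the labels' protocols. The authors deposited 1 table of raw read counts per gene, without normalisation. The tools named, per the submitters' processing notes, are HISAT2, fastp, edgeR and StringTie, and the build is GRCm39. For versions, roles, annotation and strand setting, nothing is given in the sources read. Symbols came from GENCODE release M21 for 55141 of the IDs, and 3 of 135 listed genes were matched by an older symbol, H2-Ea among them. That table is of GRCm38, so no coordinates but those of the RefSeq promoters are printed.

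Counts were tested in R 4.3.3 with edgeR 4.0.16 (quasi-likelihood F test with robust dispersion, TMM factors, default low count filter, no covariate, two-sided), adjusted by Benjamini-Hochberg over 19197 genes, threshold 0.05. The edgeR fit without DKD replicate 1 was filtered and adjusted anew, over 19989 genes. DESeq2 1.42.0 and weighted limma-voom (limma 3.58.1) were alternatives. The tests were tried on simulated counts with a capped spread between libraries and no outlying library. That trial does not cover a library like DKD replicate 1. CPM is scaled by the TMM factors, log2 CPM has a prior count of 2, and ratios have a prior count of 0.5. Per-kilobase values use the transcript with the longest coding part. The 6 ratios and 5 marker comparisons used exact permutation tests.

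All 10 members are named. From each pathway list up to 4 genes with the smallest p are named, from each marker list the 2 most abundant, and the 6 genes of most like pattern. Aif1, Adgre1 and Apob are among the few listed genes named besides these. The members and lists were chosen with earlier results of these data known. The values of 1 gene of the transcription list are not reported here.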

Additional observations from a re-analysis of the deposited data

How the results depend on the processing

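With edgeR on all 6 libraries 0 genes were called. That count was 4 without a filter, 1749 with DESeq2 and 3397 with weighted limma-voom, and it ranged from 0 to 3101 when single libraries were left out, the highest without DKD replicate 1. The replicate block also gave 0 calls, with log2 changes of 1.12 for H2-Aa and 0.37 for Cd74. The labels do not say that replicate numbers pair animals, and same-numbered libraries did not deviate together (correlations 0.03, 0.02 and 0.03), so the numbers were not used as pairs. With library size alone the median of all genes was 0.17. All members except H2-DMa kept the direction of their log2 change in every alternative. H2-DMa ranged from -0.12 to 0.56 over left-out libraries. H2-Oa gave no value under the CPM filter. Members' calls changed only without DKD replicate 1 and, for H2-Aa, with weighted limma-voom.

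The log2 ratio of Ciita to the classical chains was -0.11, became 0.12 with H2-Ea added, and ranged from -0.57 to 0.17 over left-out libraries. The class II level relative to B cell markers was -0.03, became 0.0736 with the mean of log2 CPM and -0.50 with summed marker CPM, and ranged from -0.44 to 0.26 over left-out libraries. Relative to dendritic cell markers it ranged from -0.53 to 0.12, and relative to macrophage markers from -0.63 to 0.0944, with -0.01 for summed marker CPM. The cause of these reversals was not tested. Depth limits H2-Oa, with as few as 10 counts in a library.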

Other observations

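Nnt, a mitochondrial transhydrogenase gene outside the H2 complex that C57BL/6J mice carry with a deletion, was chosen after its values were seen. It had 9501, 0 and 0 counts in control replicates 1 to 3 and 0, 8936 and 10500 counts in DKD replicates 1 to 3. The libraries with and without Nnt counts were the same 3 and 3 as those with the low and the high ratio of Cd74 to the classical chains, and those with the low and the high ratio of H2-DMb2 to H2-DMb1. H2-Ea cut the libraries differently, since control replicate 1 held both H2-Ea and Nnt.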
